A study of Mus musculus with 9 samples.

Results

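Early neuroblasts of the subventricular zone (SVZ) that carried Dcx and Gad1 transcripts, but none of Prokr2 or Foxp2, were described across genes and across age. The cells came from Dcx-GFP mice, heterozygous animals in which the Dcx promoter drives green fluorescent protein, and GFP+ cells were sorted from SVZ, olfactory bulb (OB) and dentate gyrus (DG) at 3, 14 and 24 months. Each region and age gave 1 droplet-based library from the pooled tissue of 4 to 5 mice of both sexes, and the 3 regions of an age came from the same animals. All groups carried the same transgene and no treatment was given. Cells were taken by GFP, so the libraries are no even sample of the tissue, yet they were not limited to cells with Dcx UMIs, which 491 of 731, 546 of 816 and 473 of 750 SVZ barcodes of sufficient quality held.

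Members were chosen by measured values. A barcode needed at least 1500 unique molecular identifiers (UMIs, 1 per captured transcript), at most 10% of them mitochondrial, at least 1 UMI of Dcx and of Gad1, and none of Mki67, Top2a, Pdgfra, Eomes, Prokr2 and Foxp2. The rule found 466 cells of 2948 SVZ barcodes, in a series of 7402 barcodes. There were 154 cells at 3 months, 169 at 14 months and 143 at 24 months, or 17.1% (95% exact binomial interval 14.7 to 19.8), 15.1% (13.1 to 17.4) and 15.3% (13.1 to 17.8) of the barcodes of each library. Their summed depth was 724486, 709674 and 691433 UMIs, with medians of 4541, 3877 and 4825 UMIs and of 2044, 1807 and 2113 genes per cell. In the OB the same rule found 44, 47 and 26 cells, and in the DG 1 cell at 3 months and none later.

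The SVZ lines the lateral ventricle and holds stem cells whose dividing daughters give rise to neuroblasts. These young neurons travel forward in chains, and in the OB most of them turn into local neurons that release GABA. Dcx encodes a microtubule-associated protein of migrating young neurons, Gad1 an enzyme of GABA synthesis, and St18 a zinc-finger transcription factor of the GABAergic lineage. Prokr2 encodes a receptor for a chemoattractant of the OB, and Foxp2 a forkhead transcription factor.

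The names of the rule were checked against genes it did not use. Dlx2, a homeobox factor of GABAergic progenitors, stood at 997, 1284 and 940 CPM (UMIs per 1e+06 UMIs of the summed cells) at 3, 14 and 24 months, and Sp9, a zinc-finger factor of the same lineage, at 1202, 1215 and 1242 CPM. The 14 young neuron genes other than Dcx, headed by Tubb2b, summed to 24971, 23838 and 23015 CPM.

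St18, the least abundant of the 3 marker genes, was at 93.9, 54.95 and 98.3 CPM, from 68, 39 and 68 UMIs. A St18 UMI was found in 41 of 154, 23 of 169 and 34 of 143 members. With each cell thinned to 1500 UMIs, the shares were 9.09% (5.06 to 14.8), 5.92% (2.87 to 10.6) and 8.39% (4.41 to 14.2), against 0.00%, 0.00% and 2.67% of 30, 31 and 75 Pdgfra-bearing cells of the same libraries, whose median depth of 5394, 4991 and 5507 UMIs was greater. Most members thus showed no St18 UMI at this depth. The intervals of the thinned shares overlapped between ages, while those of the unthinned shares, 26.6% (19.8 to 34.3), 13.6% (8.83 to 19.7) and 23.8% (17.1 to 31.6), did not overlap between 3 and 14 months.

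Other cell types left few transcripts. T cell, ependymal or choroid and erythrocyte markers were at 0 UMIs in all members, but Trac, of the T cell list, was not among the genes measured. Microglial markers summed to 5, 13 and 11 UMIs, with 9 of 12 genes at 0. Vascular markers summed to 2, 3 and 5 UMIs, with 7 of 9 genes at 0. Oligodendrocyte precursor markers, one of which was barred by the rule, summed to 6, 3 and 12 UMIs, and oligodendrocyte markers to 34, 43 and 31, of which 68 were Cnp. The list of 12 astrocyte and stem cell genes summed to 334, 297 and 352 UMIs, of which 493 were Glul, while Aqp4 was at 0. Slc1a3, the glutamate transporter of astrocytes and stem cells, had 46, 27 and 26 UMIs in 30, 14 and 17 members. Excitatory lineage genes, among them Eomes, which the rule barred, gave 1, 0 and 0 UMIs and striatal neuron genes 0, 2 and 3. Immune and vascular markers were thus at or near 0 in the sums, whereas transcripts of the astrocyte and stem cell list were present in some members.

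Doublets were few by the available measures. Scrublet called 10 barcodes of the SVZ libraries, 0.339%, and none of them was a member. An Xist UMI together with a UMI of a Y-linked gene, which can come from cells of both sexes in a droplet or from free RNA, was seen in 8 members, 1.72%. Between 1 and 2 barcodes recurred in pairs of SVZ libraries, and none of these was a member.

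The limits of the rule passed through a continuous range. The 188 neuroblasts kept with exactly 1 UMI of Gad1 had 63.2 CPM of St18, whereas the 202 cells left out only for having no Gad1 UMI had 29.5 CPM. For the last step, cells with 0, 1 and 2 or more UMIs of Prokr2 and Foxp2 together numbered 466, 129 and 110, with St18 at 82.3, 26.8 and 16.6 CPM. Neuroblasts without Prokr2 or Foxp2 were 71.3% (64.8 to 77.2) of 216 at 3 months, 60.8% (54.8 to 66.6) of 278 at 14 months and 67.8% (61.0 to 74.0) of 211 at 24 months. Over all ages they were 48.0% of cells with under 3000 UMIs, 62.1% of those with at least 3000 and under 5000, and 89.9% of those with 5000 or more. Members were thus the deeper cells, with medians of 4541, 3877 and 4825 UMIs against 3587, 2953 and 3632 for the cells that did carry Prokr2 or Foxp2, and a cell that lacks these UMIs does not necessarily lack the transcripts.

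**Figure D1:**
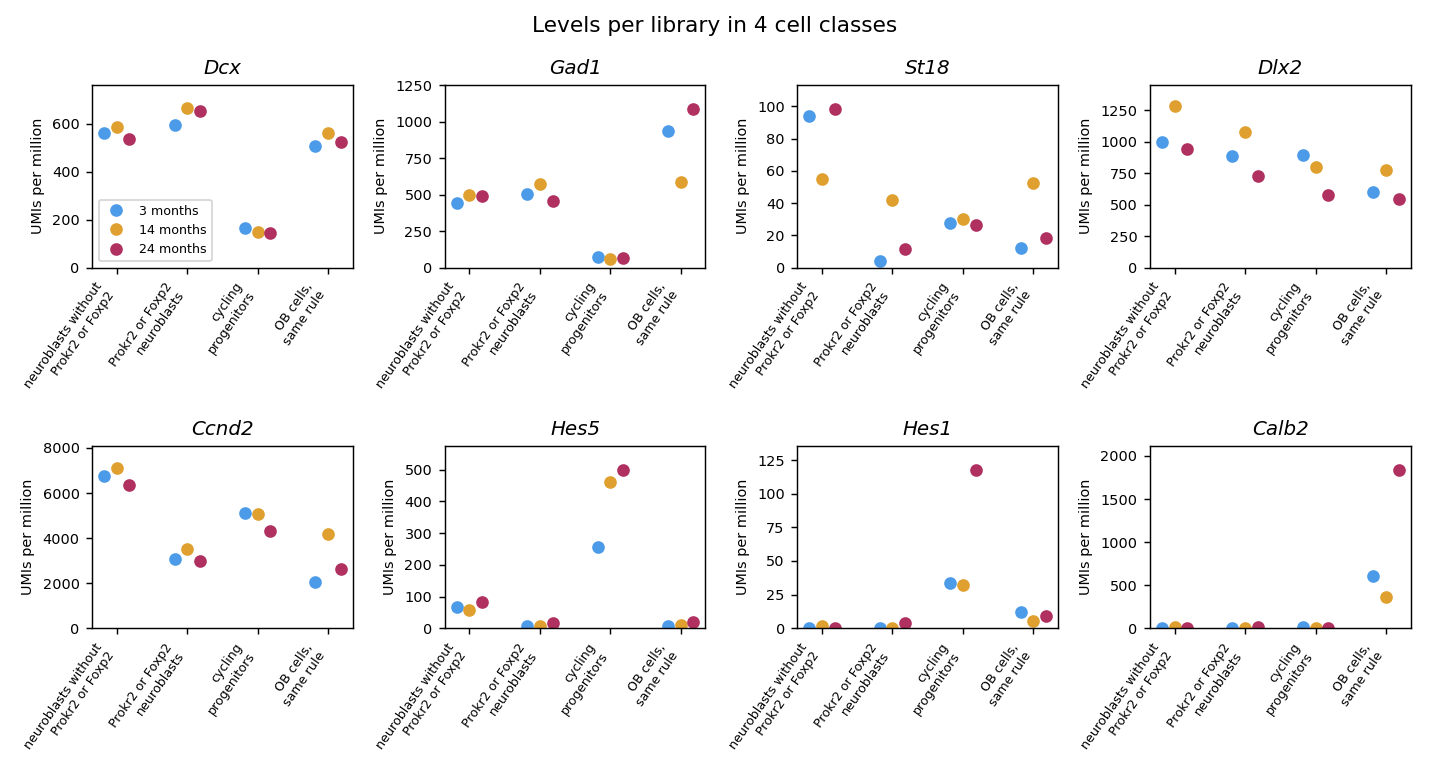
Level in CPM (linear axes from 0) of 8 genes in 4 cell classes, with 1 point for the summed cells of each library at 3, 14 and 24 months. Dcx and Gad1 were used by the rule. Ccnd2 is highest in the neuroblasts without Prokr2 or Foxp2, Hes5 and Hes1 in cycling progenitors, and Calb2 in the OB cells.

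The first comparison asked what else separated the members from the 239 neuroblasts that passed all other limits but carried Prokr2 or Foxp2. UMIs were summed by class in each library and compared with edgeR's quasi-likelihood test with the library as a block, and p-values were adjusted by Benjamini-Hochberg over all 6880 genes tested. With the library as a block, these p-values measure how much the difference between the classes varied over 3 libraries. Each library is a pool, so they do not measure the spread between mice. A difference in a sum can come from more cells of a kind or from more RNA per cell, and the 2 cannot be told apart. Of the genes tested, 184 (2.67%) were higher and 237 (3.44%) lower in the members. DESeq2 called 49, all of them among those 421 and with the same direction. Leaving out the 3-, 14- or 24-month library left 227, 212 and 208 calls. With no library block 92 genes were called. In this and the next comparisons a gene could be abundant enough for the test through 1 of the classes alone, so counts and medians over the tested genes of a list describe those genes and are no test of the list.

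Ccnd2, which encodes the D-type cyclin of neural progenitors, gave the firmest difference. Its level was 6736, 7113 and 6377 CPM in the members and 3094, 3523 and 2980 CPM in the cells with Prokr2 or Foxp2, and the groups did not overlap. The log2 fold change was 1.05 (SE 0.041, adjusted p = 6.39e-135 by edgeR's quasi-likelihood test). With no library block the edgeR adjusted p was 2.65e-06. Ccnd2 lies at chr6:127125162-127152193, on the minus strand of GRCm38. Its call was kept when the whole rule was applied to cells thinned to 1500 UMIs (adjusted p = 1.27e-26, edgeR), a rule under which 19 genes were called.

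Vim, the intermediate filament of progenitors and radial glia, was named after its values were seen. It stood at 406, 313 and 269 CPM in the members, and at 132, 47.8 and 113 CPM in the cells with Prokr2 or Foxp2. The members were higher in every library, by a log2 fold change of 1.80 (SE 0.15, adjusted p = 3.65e-28 by edgeR and 0.0037 by DESeq2). With the rule applied to thinned cells the log2 fold change was 6.93 (edgeR adjusted p = 2.95e-06), so its size was not the same there. A Vim UMI was present in 29.2%, 26.6% and 18.9% of thinned members, against 1.61%, 3.67% and 5.88% of thinned cells with Prokr2 or Foxp2. Before thinning the shares were 51.9%, 42.0% and 40.6% against 24.2%, 11.01% and 8.82%. Vim lies at chr2:13573927-13582826, on the plus strand of GRCm38.

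Pbx3, which encodes a TALE homeobox cofactor (chr2:34171457-34373142, minus strand, GRCm38), was the lowest of the GABAergic identity genes. It was at 120, 159 and 243 CPM in the members against 533, 568 and 587 CPM, with a log2 fold change of -1.73 (SE 0.11, adjusted p = 1.66e-53 by edgeR and 3.51e-16 by DESeq2). Its partner Meis2 was also lower, by a log2 fold change of -0.43 (edgeR adjusted p = 5.88e-12), with 1442, 1296 and 1391 CPM against 1914, 1601 and 1980 CPM. Of the 11 GABAergic identity genes, 3 were higher, Dlx2, Dlx6os1 and Gsx2, and 2 were lower, with a median log2 fold change of 0.04 beside -0.00 over all genes. Dlx2 lost its call without any 1 of the libraries (edgeR adjusted p up to 0.183), Dlx6os1 in 2 of the 3 such fits (up to 0.129), and Gsx2 in the only such fit that tested it (0.106). DESeq2 called none of the 3 (adjusted p = 0.722 to 0.999). Dlx1 (-0.05), Dlx5 (0.08), Sp8 (-0.06) and Sp9 (0.02) did not pass the test.

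The 15 young neuron genes split as well. Among the 14 tested, St18 and Tubb3 were higher, Sox4 and Celf4 lower, and the median was -0.03. Sox4, an SRY-box factor of early neuronal differentiation, was at 3637, 3665 and 4019 CPM against 4573, 4702 and 5380 CPM, with a log2 fold change of -0.40 (edgeR adjusted p = 3.04e-19). St18 was at 93.9, 54.95 and 98.3 CPM in the members and at 4.26, 42.2 and 11.7 CPM in the other cells, with a log2 fold change of 1.81 (edgeR adjusted p = 2.42e-07), but the adjusted p by DESeq2 was 0.737. The other cells held 1, 15 and 3 St18 UMIs, and at 14 months the levels lay close together. Celf4, an RNA-binding protein of neurons, lost its call without the 3-month library (edgeR adjusted p = 0.0573) and was not called by DESeq2 (0.476).

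Some genes of the cell cycle were higher in the members although 2 proliferation genes had been barred, but few of these calls held under other settings. Of the S phase list 6 of 14 tested genes were higher and none lower, with a median log2 fold change of 0.92. These were the helicase subunits Mcm2, Mcm3, Mcm5 and Mcm6, the DNA ligase Lig1 and the ribonucleotide reductase subunit Rrm2. Mcm2 was at 34.5, 56.4 and 26.0 CPM against 4.26, 8.44 and 3.89 CPM, with a log2 fold change of 2.73 (edgeR adjusted p = 3.94e-06). Without the 14-month library the edgeR adjusted p of Rrm2 became 0.121, that of Mcm3 0.307, that of Mcm5 0.242, that of Mcm6 0.377 and that of Lig1 0.374, while that of Mcm2 was 0.0123. DESeq2 called none of the 6, with an adjusted p of 0.215 for Mcm2, 0.245 for Rrm2, 0.362 for Mcm3 and 0.999 for Mcm5, Mcm6 and Lig1. Both Hmgb2 (1.09) and Cks2 (1.45) of 5 tested G2/M genes were higher, Hmgb2 with an edgeR adjusted p of 5.02e-11 and 0.0106 by DESeq2, while Cks2 was called in only 1 of the 3 fits that left out a library (edgeR adjusted p up to 0.146) and not by DESeq2 (0.806). The cyclins and inhibitors around cell cycle exit were split, with 2 of 9 tested higher, 3 lower and a median of 0.43. Beside Ccnd2, the inhibitor Cdkn2c was higher (1.16), a call that was kept in only 1 of the 3 fits that left out a library (edgeR adjusted p up to 0.274) and not by DESeq2 (0.955). The antiproliferative Btg1 was lower, at a log2 fold change of -0.57 (edgeR adjusted p = 1.09e-30), as were the inhibitors Cdkn1a (-1.22) and Cdkn1c (-0.94). The calls of Cdkn1a and Cdkn1c were each kept in only 1 of the 3 fits (edgeR adjusted p up to 0.548 and 0.107), and neither was called by DESeq2 (adjusted p = 0.999 and 0.842).

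A few cells carried much of some of these differences. Hes5, an effector of Notch signalling, was at 66.3, 56.4 and 82.4 CPM in the members against 8.52, 8.44 and 15.6 CPM, with a log2 fold change of 2.60 (edgeR adjusted p = 5.92e-10, DESeq2 0.0137). Only 11, 13 and 11 members held a Hes5 UMI, and the 5 highest cells of each age held 87.5%, 80.0% and 89.5% of them. Of the other 6 Notch genes tested none passed, and the list median was -0.05. Rrm2 had 88 UMIs at 14 months, 64 of them in 5 cells, and 2810417H13Rik, which encodes a PCNA-binding protein, had 111 UMIs, 78 of them in 5 cells. St18 was spread more widely, with 27.9%, 35.9% and 30.9% of its UMIs in the 5 highest cells.

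Some genes of later neuronal life were lower in the members. Among the 5 tested genes of the mature neuron list, Syt1, Snap25 and Gria2 were lower and the list median was -0.73. Syt1, the calcium sensor of vesicle release, was at 6.90, 7.05 and 14.5 CPM against 81.0, 61.9 and 42.8 CPM, with a log2 fold change of -2.71 (edgeR adjusted p = 3.31e-11, DESeq2 0.00235). Pcp4, a calmodulin regulator, was at 4.14, 11.3 and 17.4 CPM against 51.1, 152 and 58.4 CPM (log2 fold change -3.02, edgeR adjusted p = 7.01e-21, DESeq2 5.59e-05). Sfrp2, a secreted Wnt modulator, had the lowest log2 fold change, -3.06, from 0, 7 and 3 UMIs against 5, 18 and 13. Gria2, which encodes an AMPA receptor subunit, lost its call without any 1 of the libraries (edgeR adjusted p up to 0.277). Neither Gria2 nor Snap25 was called by DESeq2 (adjusted p = 0.999 and 0.253) or on thinned cells (edgeR adjusted p = 0.497 and 0.711), so of the 3 list genes only Syt1 was called by both tools. On thinned cells the log2 fold changes of Gria2 and Snap25 were -0.71 and -1.16, beside -0.47 and -1.18 on all UMIs. Snap25 was called in all 3 fits that left out a library (edgeR adjusted p up to 0.0390).

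Of the receptors that guide migrating cells, 3 of 8 tested were lower and none higher, with a list median of -0.29. Robo2, a Slit receptor, was at 115, 116 and 96.9 CPM against 192, 228 and 210 CPM, a log2 fold change of -0.97 (edgeR adjusted p = 3.07e-08, DESeq2 0.0347). Erbb4, the neuregulin receptor, had a log2 fold change of -0.90 that was called in only 1 of the 3 fits that left out a library (edgeR adjusted p up to 0.581), and the semaphorin coreceptor Plxna4 one of -0.62, which was lost without any 1 of the libraries (edgeR adjusted p up to 0.217). DESeq2 called neither (adjusted p = 0.999). Of 24 cytoskeletal genes 7 were higher and 2 lower, with a median of 0.08, and 5 of these 9 calls were kept by DESeq2 and 5 in all 3 fits that left out a library. The lower genes, Stmn4 and Mapt, were called in none of those fits (edgeR adjusted p up to 0.221 and 0.299). Tmsb4x, which encodes an actin-sequestering peptide, had 10024, 9417 and 7685 CPM against 6837, 6013 and 5517 CPM (log2 fold change 0.54, edgeR adjusted p = 2.00e-45), and the tubulin Tubb5 6623, 6595 and 5817 CPM against 5089, 4944 and 4279 CPM (0.39, edgeR adjusted p = 3.00e-20). Of 82 ribosomal protein genes 20 were lower and none higher, with a median of -0.11, but DESeq2 and the 3 fits that left out a library each kept only 1 of the 20 calls.

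Immediate early genes, which are switched on within minutes by stimuli that include tissue dissociation, were split, and 6 of 13 tested were higher in the members and 1 lower, with a median of 0.25. Jun was at 2102, 1756 and 3024 CPM against 1483, 1368 and 2124 CPM, with a log2 fold change of 0.43 (edgeR adjusted p = 2.71e-13, and 1.64e-06 on thinned cells). Egr1 was at 758, 923 and 1251 CPM against 639, 608 and 665 CPM, with a log2 fold change of 0.59 (edgeR adjusted p = 5.79e-12). Atf3, a stress-responsive bZIP factor, had a log2 fold change of 2.74 (edgeR adjusted p = 3.77e-09), which became 0.0616 without the 24-month library. The calls of Fos and Ier2 were each kept in only 1 of the 3 fits that left out a library (edgeR adjusted p up to 0.338 and 0.247). DESeq2 called none of Atf3, Fos and Ier2 (adjusted p = 0.0696, 0.823 and 0.999). Of 10 heat shock genes 6 were higher and 1 lower, the latter being Hspa1a with 311 CPM at 24 months in the cells with Prokr2 or Foxp2 and 37.6 CPM in the members. Hspa1a was not abundant enough to be tested without the 24-month library and was not called by DESeq2 (adjusted p = 0.999). Each of the 6 higher heat shock genes lost its call in at least 1 of the fits that left out a library, with edgeR adjusted p up to 0.490 for Dnaja1, 0.443 for Dnajb1, 0.306 for Hsp90ab1, 0.230 for Hspa5, 0.354 for Hsph1 and 0.5004 for Hsp90aa1. DESeq2 called none of the 6 (adjusted p = 0.636 to 0.999). Of 13 interferon-induced genes tested, Ifit1 and Ifitm3 were higher and none was lower, and none of 8 early progenitor genes passed the test. Ifit1 and Ifitm3 were abundant enough for only 1 of the 3 fits that left out a library, and DESeq2 called neither (adjusted p = 0.999).

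The rest of the named differences were small in UMIs. Higher in the members were Cdk6, Cdca7l, Ogdh and Ccdc109b, with log2 fold changes of 1.90, 1.90, 2.19 and 2.81, and lower were Arpp21, Gm27032, Ntm, Kif26a, Gatb, Syt6 and Crtac1, between -2.96 and -1.87. Of the 20 genes named by size, 12 were called with each library left out in turn and 5 by DESeq2, and none was abundant enough to be tested under the thinned rule. Leaving out 1 library ended the calls of Cdk6 (edgeR adjusted p = 0.0898) and Cdca7l (0.118) without 14 months, of Ntm (0.0563) without 24 months and of Crtac1 (0.113) without 3 months. Arpp21 was abundant enough to be tested in only 1 of these fits, and 42 of its UMIs in the cells with Prokr2 or Foxp2 lay in the 14-month library, against 3 and 8 in the others. The interneuron subtype genes Tshz1 and Etv1 were lower, at log2 fold changes of -1.26 and -0.34, but Etv1 was called in only 1 of the 3 fits that left out a library (edgeR adjusted p up to 0.702) and not by DESeq2 (0.999).

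With the rule applied to thinned cells, several genes of the comparison were not called. Their edgeR adjusted p was 0.675 for Btg1, 0.427 for Meis2, 0.233 for Tshz1, 0.307 for Hmgb2, 0.0894 for Tubb3 and 0.986 for Celf4. The log2 fold changes on these cells were 1.20 for Hmgb2, 0.39 for Tubb3, -1.01 for Tshz1 and -0.33 for Meis2, close to those on all UMIs, and -0.21 for Btg1 and 0.05 for Celf4, which were nearer to 0. On the same cells Pbx3 (edgeR adjusted p = 4.92e-06), Robo2 (0.0127), Sox4 (0.0268) and Egr1 (0.0410) kept their calls and directions.

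**Figure D2:**
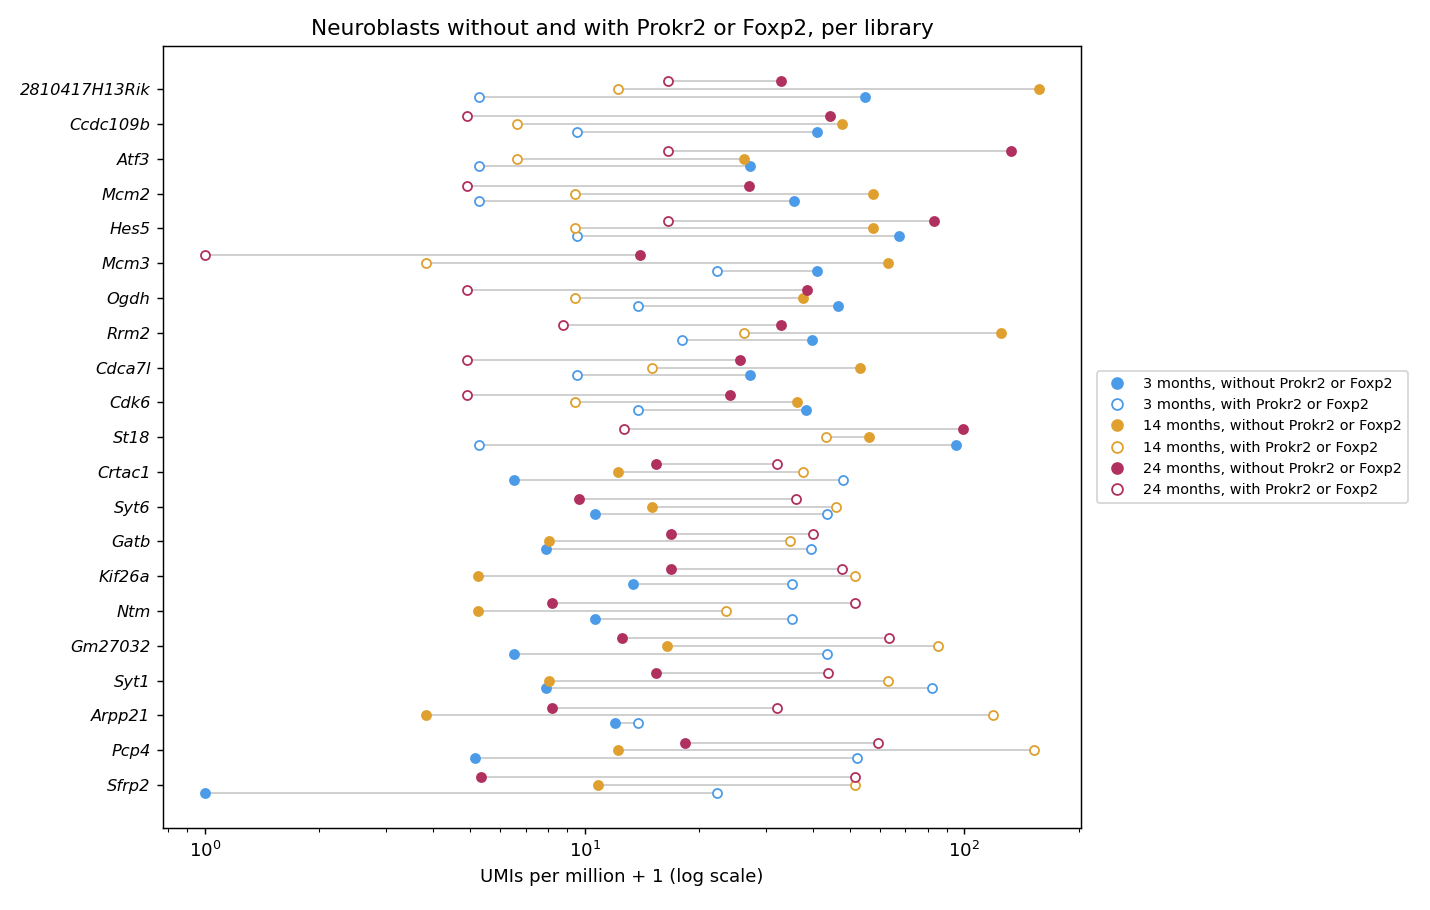
CPM plus 1 (log scale) of the 20 genes named by size of their log2 fold change and of St18, with filled points for neuroblasts without Prokr2 or Foxp2 and open points for those with, and a line for each library at 3, 14 and 24 months. For each gene the filled points lie on the same side of the open points in all 3 libraries, by the rule that named the genes.

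Set against the 717 cycling SVZ progenitors, defined by a UMI of Mki67 or Top2a and none of Pdgfra or Eomes, 2218 of 9514 genes (23.3%) were higher and 2524 (26.5%) lower in the members. The rule barred both genes, so the cell cycle lists describe the choice of cells and are given as values. All 20 S phase and all 20 G2/M genes were lower, with median log2 fold changes of -2.23 and -5.19 beside -0.02 over all genes. Kif11, a mitotic motor, had 0 UMIs in all members and was at least 72.5-fold higher in cycling cells, against a floor of 3 counts over the summed members. The cycling cells were deeper, with medians of 8494, 9242 and 10385 UMIs.

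The members also had to carry Dcx and Gad1, and the cycling cells did not have to. A Dcx UMI was found in 60.9%, 54.9% and 59.0% of cycling cells at 3, 14 and 24 months, and a Gad1 UMI in 34.3%, 29.2% and 32.3%. Differences in young neuron, GABA, early progenitor and Notch genes therefore describe in part the choice of cells. Outside the cell cycle, all 14 tested young neuron genes were higher in the members, with a median of 1.42. Among them, Stmn2, a microtubule destabiliser of growing neurites, had a log2 fold change of 2.27 and Tubb3 one of 1.77. All 4 tested genes of GABA synthesis and transport were higher, and Gad2 stood at 444, 447 and 428 CPM against 121, 84.5 and 82.2 CPM. The call of Abat, the enzyme of GABA breakdown, was lost without the 24-month library (edgeR adjusted p = 0.0687) and by DESeq2 (0.116). Of 13 adhesion and migration genes 10 were higher, 8 of them also by DESeq2. Among early progenitor genes 9 of 11 were lower and 2 higher, and DESeq2 kept 8 of these 11 calls. The growth factor receptor Egfr had a log2 fold change of -3.68.

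In this comparison Notch genes were lower in 10 of 12 cases and higher in 1, with Hes5 at a log2 fold change of -2.60 and Hes1 at -6.83. DESeq2 kept 7 of these 11 calls and not those of Jag1 (adjusted p = 0.0795), Hey1 (0.121), Notch2 (0.139) and the higher gene Mfng (0.188). The members held 1 UMI of Hes1 over the 3 ages. Ccnd2 was higher also than in cycling cells, with a log2 fold change of 0.43 (edgeR adjusted p = 6.67e-08), and St18 by 1.49 (1.50e-09), although the latter was not called on thinned cells (0.151). Among the genes named by size, Islr2, a membrane protein of growing axons, was at 515, 287 and 425 CPM against 59.2, 36.1 and 51.1 CPM (log2 fold change 3.01, edgeR adjusted p = 2.50e-27). Tle2, Htr3a, Plxna4, Socs2, Parm1, St6galnac5, Tshz2, Tcp11l2 and Trpc4 were higher, by log2 fold changes of 3.46 to 2.81. Depdc1a, Esco2, Ntsr2, Sapcd2, Spc25, Ncapg, Nuf2 and Aurkb were lower, by -8.94 to -6.31, and all 20 named genes were called by DESeq2 and with each library left out. The classes were chosen by Mki67 and Top2a, so calls of cell cycle genes among these describe the choice of cells. The members were also chosen by Dcx and Gad1, so calls of neuronal and progenitor genes describe it in part.

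The third comparison set the members against the 117 OB cells found by the same rule, 44, 47 and 26 of them, so that both groups passed the same limits. Of 6838 genes tested, 440 (6.43%) were higher in the SVZ and 717 (10.5%) lower. DESeq2 called 452, 86 higher and 366 lower, all among the same 1157. The rule genes themselves stood at 562, 588 and 537 CPM for Dcx and 443, 496 and 490 CPM for Gad1 in the SVZ members, and at 509, 562 and 526 CPM and 935, 589 and 1088 CPM in the OB cells. Leaving out the 3-month or the 24-month libraries left 550 and 718 calls. The OB cells of 3 months stood apart, because the oligodendrocyte list was at 9898 CPM in them and at 73.6 and 64.5 CPM in those of 14 and 24 months, against 46.9, 60.6 and 44.8 CPM in the SVZ members. The part of these transcripts in the comparison was not tested.

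Synaptic and mature neuron genes were less abundant in the SVZ members. The mature neuron list of 9 genes summed to 279, 303 and 330 CPM in them and to 2344, 1256 and 1844 CPM in the OB cells, and the 15 genes of GABA reception to 152, 182 and 185 CPM against 651, 442 and 682 CPM. All 9 genes of the former and 6 of the latter were called lower by edgeR, 7 and 4 of them also by DESeq2, but some were abundant enough for the test only through the OB cells. Snap25, a SNARE protein of vesicle fusion, was at 48.3, 52.1 and 36.2 CPM in the SVZ and at 953, 342 and 655 CPM in the OB (log2 fold change -3.71, edgeR adjusted p = 4.85e-15). Slc12a5, the chloride extruder of mature neurons, had no UMI in the SVZ members and 7, 5 and 5 in the OB cells. Calb2 and Th, genes of OB interneuron subtypes, had 12 and 1 UMIs in all SVZ members and 372 and 58 in the OB cells.

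Among the genes named by size, Pcp4l1, the neuropeptide precursor Tac1 and Cpne6 had no UMI in the SVZ members and were at least 219.7-fold, 182-fold and 147-fold higher in the OB, against a floor of 3 counts over the members. Penk, the enkephalin precursor, had 1 UMI in the SVZ and 15, 9 and 108 in the OB cells. Kcnip2, Pex5l, 9530059O14Rik, Dnm1, Grm5 and Inpp5j also had none in the SVZ. Pex5l and 9530059O14Rik were not called by DESeq2 (adjusted p = 0.0916 and 0.0651). Genes of astrocytes and stem cells were lower in 6 of 9 cases and higher in 1, and DESeq2 kept 5 of these 7 calls. The list summed to 461, 418 and 509 CPM in the SVZ members and to 1480, 1514 and 1300 CPM in the OB cells, and the part of such transcripts in the other differences was not tested. Of its genes, Clu and Aldoc had log2 fold changes of -5.23 and -4.97, while S100b had 77 of its UMIs in the 3-month OB cells and was not called by DESeq2 (adjusted p = 0.187).

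Neuroblast genes were higher in the SVZ members in 9 of 14 cases and lower in 1, and of these 10 calls 4 were kept by DESeq2 and 3 in all 3 fits that left out an age. The lower gene, Celf4, lost its call without the 24-month libraries (edgeR adjusted p = 0.143). Tubb2b was at 5195, 4759 and 4988 CPM against 2167, 2644 and 2167 CPM, with a log2 fold change of 1.14 (edgeR adjusted p = 9.02e-07), and Ccnd2 was higher by 1.28 (4.50e-07). The calls of Stmn2, Tubb3 and St18, the last at 1.44, were each kept in only 1 of the 3 fits that left out an age (edgeR adjusted p up to 0.193, 0.271 and 0.270). DESeq2 called Tubb3 (adjusted p = 0.0488), but not Stmn2 (0.0958), St18 (0.193) or Celf4 (0.141). Of 24 cytoskeletal genes 14 were higher and none lower, and of 82 ribosomal protein genes 55 were higher and none lower, with medians of 0.53 and 0.50. DESeq2 kept 8 of the 14 and 11 of the 55 calls, and 3 of each were kept in all 3 fits that left out an age. Of the GABAergic identity genes 5 were higher, among them Sp9 at 1.25, and Sp8 was lower at -1.09, and DESeq2 kept 5 of these 6 calls.

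Immediate early genes were higher in the SVZ in 8 of 12 cases, with a median of 1.30, and DESeq2 kept 7 of the 8. Egr1 and Ier2 had log2 fold changes of 2.89 and 2.96 (edgeR adjusted p = 1.19e-12 and 9.90e-13). Atf3 had 19, 18 and 91 UMIs in the SVZ members and none in the OB cells, so it was at least 9.39-fold higher against a floor of 3 counts. Each region was pooled and dissociated separately, so handling and region cannot be told apart. Nr2f1, an orphan nuclear receptor, Neb, Glipr2, Dusp6, Hes5 and Cks2 were higher by log2 fold changes of 3.58 to 2.49. DESeq2 did not call Neb, Dusp6 and Cks2 (adjusted p = 0.0988, 0.0521 and 0.114). The interferon genes Ifit1, Irf9, Usp18, Oasl2 and Rtp4 were called higher by edgeR, but they were abundant enough for the test through the SVZ members, so their number is no result. Usp18 had 4, 38 and 53 UMIs against 0, 1 and 0 (log2 fold change 4.16, edgeR adjusted p = 0.000316). DESeq2 called none of the 5, with an adjusted p of 0.0633 for Usp18 and of 0.182 to 0.393 for the others, and each was abundant enough for only 1 of the 3 fits that left out an age.

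Age was compared within the members by summed UMIs. There was 1 library for each age, so no test between ages was possible, and the intervals given are exact 95% intervals that cover counting error only. The 24 over 3 month and 14 over 3 month ratios share the 3-month library. Of 4366 genes that had 50 or more UMIs in the compared sums, 45 (1.03%) were at least 2-fold higher at 24 than at 3 months and 27 (0.618%) at least 2-fold lower, with a median log2 ratio of -0.01. At 14 against 3 months 16 of 4328 genes (0.370%) were higher and 43 (0.994%) lower, and at 24 against 14 months 59 of 4322 (1.37%) were higher and 23 (0.532%) lower. Most genes therefore lay close to a ratio of 1.

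Genes of young neurons, which bear on the members' type, lay close to a ratio of 1. The log2 ratio of 24 over 3 months was -0.12 (-0.15 to -0.09) for the 14 young neuron genes other than Dcx, -0.06 (-0.11 to -0.00) for GABAergic identity, -0.07 (-0.26 to 0.11) for the 5 GABA synthesis and transport genes other than Gad1 and -0.01 (-0.08 to 0.07) for adhesion and migration. Dcx aside, no measured gene of the young neuron, adhesion or cytoskeletal lists was 2-fold apart. Of 9 measured GABAergic identity genes 1, Pbx3, was at least 2-fold higher at 24 months. The ratio was above 0 for 3 of the 9, so the sum of that list covers genes that go both ways. The cytoskeletal list summed to 84082, 80450 and 72389 CPM, a log2 ratio of -0.22 (-0.23 to -0.20), and Tmsb4x and Tuba1a had ratios of -0.38 and -0.26. A similar value of -0.25 was found for this list in the cells with Prokr2 or Foxp2, and -0.13 in cycling progenitors.

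The largest difference between ages was in genes induced by interferons. Interferons are cytokines released in viral infection and inflammation, which act through cell surface receptors to induce antiviral proteins and antigen presentation. The interferon list of 31 genes had 69, 341 and 555 UMIs in the members at 3, 14 and 24 months, or 95.2, 481 and 803 CPM. The log2 ratio was 2.33 (1.96 to 2.73) at 14 over 3 months and 3.08 (2.71 to 3.46) at 24 over 3 months. In the cells with Prokr2 or Foxp2 it was 85.2, 177 and 805 CPM, and in cycling progenitors 126, 377 and 726 CPM. OB cells found by the same rule held 148, 200 and 157 CPM, with a 24 over 3 month log2 ratio of 0.08 (-0.90 to 1.03).

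Ifi27, which encodes an interferon-inducible mitochondrial protein (chr12:103434211-103440239, plus strand, GRCm38), was the most abundant member of the list, with 33, 87 and 135 UMIs at 3, 14 and 24 months. Usp18, a negative regulator of interferon receptor signalling (chr6:121245906-121270917, plus strand), had 4, 38 and 53 UMIs. The antiviral genes Oasl2, with 1, 27 and 39, and Ifit1, with 1, 19 and 18, and the chaperone Rtp4, with 2, 20 and 31, were close to 0 at 3 months. Ifitm3, an inhibitor of virus entry, had 0, 18 and 45 UMIs, Bst2, which tethers virus particles, 0, 13 and 14, and Irf7, the regulator of interferon genes, 0, 13 and 15. Irf9, a transcription factor of interferon signalling, had 6, 21 and 37 UMIs. The log2 ratio of 24 over 3 months was 2.10 (1.54 to 2.70) for Ifi27 and 3.80 (2.35 to 5.72) for Usp18, the latter abundant enough for a ratio only through its UMIs at 24 months.

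A sequence that the rule did not use was searched in the promoters of the interferon list. The letters GAAANNGAAA, the core of the interferon-stimulated response element bound by interferon-activated factors, were searched on both strands from 250 bases before to 50 bases after the start of each gene, and occurrences may overlap. The letters were present in 19 of the 24 interferon list genes with a promoter in RefSeq (GRCm38.p6), and in 1131 of all 32851 promoters, 3.443%. Of the genes named above, Ifit1, Ifitm3 and Bst2 held them and Oasl2, Irf7 and Irf9 did not, while Usp18, Rtp4 and Ifi27 were not searched here. None of the 17 matched promoters of the immediate early list and none of the 10 of the heat shock list held them. A match describes the sequence and is not a bound site. The promoters of Ifit1, at chr19:34640639-34640938 on the plus strand, and of Bst2, at chr8:71537423-71537722 on the minus strand, are shown as examples. Both genes had at most 1 UMI at 3 months and each window has 2 matches, which also holds for Ifitm3, not shown here. Matches are printed in capitals, and those of Bst2 overlap.
Ifit1: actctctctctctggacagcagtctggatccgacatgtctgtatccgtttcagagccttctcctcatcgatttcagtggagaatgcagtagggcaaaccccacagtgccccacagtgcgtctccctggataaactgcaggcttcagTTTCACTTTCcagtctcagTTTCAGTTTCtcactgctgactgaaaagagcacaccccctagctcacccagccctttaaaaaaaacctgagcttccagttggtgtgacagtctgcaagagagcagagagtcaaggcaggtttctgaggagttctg
Bst2: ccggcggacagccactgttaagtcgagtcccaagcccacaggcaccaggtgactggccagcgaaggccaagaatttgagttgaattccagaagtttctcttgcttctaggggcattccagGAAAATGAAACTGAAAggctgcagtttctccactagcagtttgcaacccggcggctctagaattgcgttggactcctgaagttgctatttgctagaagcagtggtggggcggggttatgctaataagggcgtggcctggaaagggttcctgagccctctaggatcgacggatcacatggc

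The interferon transcripts were unevenly shared among cells. A total of 5 or more UMIs of the list was found in 2 of 154 members at 3 months (1.30%, 0.158 to 4.61), in 15 of 169 at 14 months (8.88%, 5.05 to 14.2) and in 22 of 143 at 24 months (15.4%, 9.90 to 22.4). No UMI of the list was found in 115, 97 and 50 members, and the highest cells held 17, 43 and 88. The 5% of cells highest in the list held 53.6%, 58.7% and 49.7% of its UMIs. Without these cells the level was 47.0, 212 and 427 CPM, so the order of the ages did not rest on them. On cells thinned to 1500 UMIs, a Usp18 UMI was present in 1.30% (0.16 to 4.61), 4.73% (2.07 to 9.11) and 6.99% (3.40 to 12.5) of members, and in 0.00%, 0.00% and 2.67% of Pdgfra-bearing cells. Before thinning, 2, 18 and 23 members held a Usp18 UMI. An Ifi27 UMI was present in 5.84%, 14.2% and 21.7% of thinned members, but in 43.3%, 45.2% and 60.0% of thinned Pdgfra-bearing cells. For Ifitm3 the shares were 0.00%, 1.78% and 4.90% of thinned members and 0.00%, 0.00% and 5.33% of thinned Pdgfra-bearing cells. At 24 months neither Ifi27 nor Ifitm3 was present in a larger share of members than of Pdgfra-bearing cells.

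Members with 5 or more interferon UMIs were set beside the other members of their library as a description. At 24 months the 14 young neuron genes other than Dcx stood at 22503 CPM in these 22 cells and at 23131 CPM in the other 121, and St18 at 125 and 92.4 CPM. At 14 months the same 14 genes stood at 22606 CPM in 15 cells and 23977 CPM in 154. Gad1, which the rule used, was at 350 CPM in the high cells of 24 months and at 522 CPM in the others. Immediate early genes were more abundant in the high cells, at 7295 against 5662 CPM at 14 months and 10866 against 8601 CPM at 24 months. The high cells were also deeper, with medians of 4436 against 3850.5 UMIs at 14 months and 5507 against 4580 UMIs at 24 months, and the part of depth was not tested. Microglial markers were at 13.9 and 15.6 CPM in the high cells of 14 and 24 months, and at 18.8 and 16.0 CPM in the others. Genes of MHC class I antigen presentation, which the choice of these cells did not use, were at 943 and 1121 CPM in the high cells against 358 and 400 CPM.

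The pools held mice of both sexes, and Xist and 4 Y-linked genes separated some of the cells. Xist was at 480, 858 and 889 CPM in the members and the Y-linked genes at 119, 117 and 123 CPM. Members with an Xist and no Y-linked UMI numbered 43, 70 and 73, and those with a Y-linked and no Xist UMI 57, 51 and 44. In the first group the interferon list stood at 199 (144 to 268), 140 (99.7 to 192) and 936 (839 to 1040) CPM, and in the second at 38.7 (19.3 to 69.2), 551 (462 to 652) and 672 (567 to 791) CPM. At 14 months, 5 cells with Y-linked UMIs and 1 with Xist held 5 or more UMIs of the list. The same order was found in cycling progenitors, at 197, 153 and 832 CPM in cells with Xist and 95.6, 564 and 630 CPM in cells with Y-linked UMIs. In the neuroblasts with Prokr2 or Foxp2 the values were 74.4, 110 and 714 CPM and 98.1, 314 and 969 CPM. There the cells with Xist were not lower at 14 than at 3 months. In all OB cells of sufficient depth the values were 285, 497 and 770 CPM and 398, 766 and 606 CPM, and in the DG 351, 667 and 789 CPM and 405, 677 and 1111 CPM. The log2 ratio of 14 over 3 months in the members was -0.51 (-1.17 to 0.15) in the cells with Xist alone and 3.83 (2.95 to 4.87) in those with Y-linked UMIs alone, and that of 24 over 3 months was 2.23 (1.77 to 2.72) and 4.12 (3.24 to 5.15). At 3 months the Xist group held 43 list UMIs, and 2 of its 43 cells had 5 or more each, the highest 17. The negative sign of the 14 over 3 month ratio may rest on these 2 cells, and the ratio was not computed without them. Members with neither numbered 52, 44 and 24 and stood at 61.1, 792 and 696 CPM, and at 14 months 7 of them held 5 or more UMIs. Those with both numbered 2, 4 and 2, and the 4 cells of 14 months held 36 UMIs of the list, 2 of them 5 or more. The number of mice behind each group is not known from the labels, so sex and single animals cannot be told apart.

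**Figure D3:**
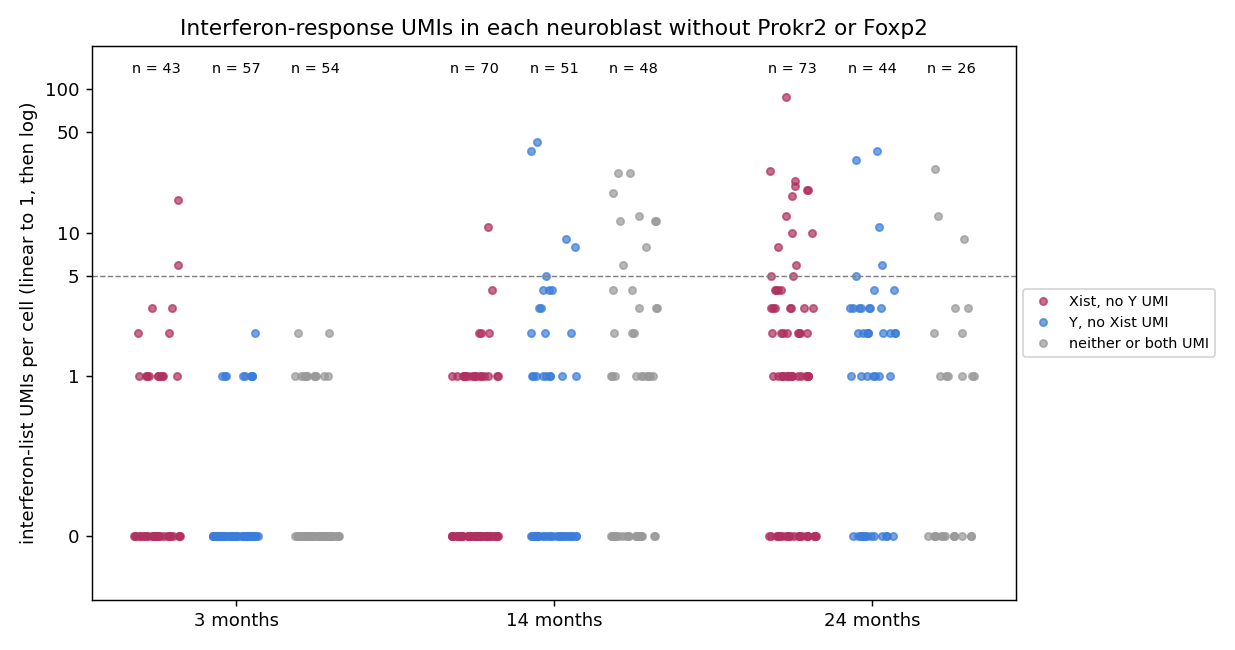
UMIs of the 31 interferon list genes in each of the 466 members (linear from 0 to 1, then log), by age and by the presence of Xist and Y-linked UMIs, with the dashed line at 5 UMIs. At 3 months 2 cells, at 14 months 15 and at 24 months 22 cells reach the line, and at 14 months 1 of them is in the Xist group.

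Antigen presentation genes differed by age in the same direction and less. The MHC class I list of 13 genes had 349, 417 and 534 CPM in the members, with a log2 ratio of 0.61 (0.38 to 0.85) at 24 over 3 months. B2m, the light chain of MHC class I, had 10, 30 and 48 UMIs and H2-D1 20, 36 and 40. Genes of TNF and NF-kB signalling showed no such difference, with 175, 162 and 148 UMIs and a log2 ratio of -0.17 (-0.50 to 0.15). By sex-linked UMIs, the ratio of the MHC class I list was 0.88 (0.48 to 1.29) in members with Xist alone and 0.34 (-0.06 to 0.75) in those with Y-linked UMIs alone.

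Immediate early genes were most abundant at 24 months. The list was at 5996, 5828 and 9022 CPM, with a log2 ratio of 0.59 (0.53 to 0.65) at 24 over 3 months and of -0.04 (-0.10 to 0.02) at 14 over 3 months. Junb had 211, 255 and 435 CPM, Jun 2102, 1756 and 3024 CPM and Fos 841, 910 and 1176 CPM. Atf3 had 19, 18 and 91 UMIs in 13, 11 and 31 cells, and 30 of the 91 UMIs came from 1 cell. On thinned cells an Atf3 UMI was present in 3.25%, 2.96% and 8.39% of members, against 3.33%, 0.00% and 0.00% of thinned Pdgfra-bearing cells. At 3 months the share of members was thus not above that of Pdgfra-bearing cells, which rested on 1 of 30 cells (0.0844 to 17.2). The list was also higher in cycling progenitors, at 3348, 3660 and 5892 CPM, and each region and age was 1 preparation, so age and handling cannot be told apart. OB cells found by the same rule were at 2634, 1388 and 4877 CPM. The ratio of 24 over 3 months was 0.78 (0.69 to 0.87) in members with Xist alone, 0.44 (0.35 to 0.54) in those with Y-linked UMIs alone and -0.08 (-0.22 to 0.06) in the rest.

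The heat shock list had a log2 ratio of 0.27 (0.23 to 0.32) at 24 over 3 months, and this was 0.45 (0.38 to 0.53) in members with Xist alone, 0.00 (-0.08 to 0.09) in those with Y-linked UMIs alone and -0.06 (-0.17 to 0.06) in the rest. Its most abundant gene, the chaperone Hspa8, had 3492, 3362 and 3688 CPM. The stress-inducible Hsp90aa1 stood at 1612, 1647 and 2723 CPM. Ddit3, the stress factor CHOP, had 50, 55 and 110 UMIs, a log2 ratio of 1.20 (0.71 to 1.72). The mitochondrial share of UMIs, a sign of cell quality, had medians of 2.34%, 2.60% and 2.69% in the members, and its part in these differences was not tested.

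Some transcription factors differed between ages. Pax6, a paired-box factor of OB interneuron subtypes (chr2:105668900-105697364, plus strand), had 142, 27 and 42 UMIs in 58, 22 and 25 members, with log2 ratios of -2.37 (-3.02 to -1.76) at 14 over 3 months and -1.69 (-2.22 to -1.18) at 24 over 3 months. On thinned cells 24.0% (17.5 to 31.6), 5.33% (2.46 to 9.87) and 9.79% (5.46 to 15.9) of members held a Pax6 UMI, while 10.0%, 6.45% and 1.33% of Pdgfra-bearing cells did. At 14 months the share of members was thus not above that of Pdgfra-bearing cells, which rested on 2 of 31 cells (0.791 to 21.4). In cycling progenitors Pax6 was at 179, 84.5 and 83.7 CPM and in all DG cells of sufficient depth at 121, 54.4 and 48.2 CPM, but in the OB at 162, 190 and 254 CPM. Sp8 had 204, 152 and 110 UMIs, a log2 ratio of -0.82 (-1.17 to -0.48), and Pbx3 had 87, 113 and 168, a log2 ratio of 1.02 (0.63 to 1.41). Id4, an inhibitor of bHLH factors, had 95, 79 and 42 UMIs, a log2 ratio of -1.11 (-1.67 to -0.57).

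S phase genes were highest at 14 months. The list was at 1032, 1401 and 848 CPM, and the log2 ratio of 14 over 3 months was 0.44 (0.30 to 0.58). It was 0.17 (-0.09 to 0.42) in members with Xist alone and 0.80 (0.60 to 1.008) in those with Y-linked UMIs alone. At 14 months the top 5% of cells, 9 in number, held 451 of 994 UMIs, and without them the levels were 776, 850 and 673 CPM. Rrm2, of this list, had 28, 88 and 22 UMIs, and 2810417H13Rik, which is not on it, 39, 111 and 22 UMIs. At 14 months the 5 highest cells held 72.7% of the Rrm2 UMIs and 70.3% of those of 2810417H13Rik. At 3 and 24 months they held 32.1% and 45.5% for Rrm2, whose UMIs lay in 24 and 17 cells, and 61.5% and 81.8% for 2810417H13Rik.

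Several of the named genes also differed by age in other cells. PISD, which the annotation places on the unplaced scaffold JH584304.1, had 85, 185 and 323 UMIs, a log2 ratio of 1.99 (1.64 to 2.36) at 24 over 3 months, and was at 166, 315 and 498 CPM in the cells with Prokr2 or Foxp2, 120, 234 and 329 CPM in the OB and 149, 183 and 253 CPM in the DG. Whether these UMIs come from this locus or from other Pisd copies could not be settled, so the value is uncertain. The mitochondrial gene mt-Atp8 had 32, 20 and 97 UMIs, and its 24 over 3 month log2 ratio was 1.67 in the members, 1.82 in the OB and 1.79 in the DG. Cnot3, a subunit of the deadenylase complex, had 50, 24 and 112 UMIs, and Sag 74, 67 and 153. The pseudogenes Rpl27-ps3 (113, 142 and 29 UMIs), Rpl23a-ps3 (108, 183 and 52), Gm8730 (35, 86 and 17) and Gm9843 (40, 96 and 48) share reads with ribosomal protein genes and are uncertain.

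At 14 months a further set of genes stood below both other ages. Arrdc3, an arrestin domain protein, had 114, 29 and 111 UMIs, found in 74, 25 and 62 members. Its share was lowest at 14 months in other cells of these libraries too. An Arrdc3 UMI was found in 54.5%, 27.0% and 50.6% of cycling progenitors and 24.2%, 15.6% and 32.4% of cells with Prokr2 or Foxp2. For Pdgfra-bearing cells the shares were 23.3%, 6.45% and 12.0%. Acly, the enzyme that makes cytosolic acetyl-CoA, had 86, 29 and 43 UMIs, Lrrn1 95, 39 and 57, and Arhgef2, a microtubule-bound exchange factor, 117, 49 and 86. The log2 ratios of 14 over 3 months of these genes were -1.95, -1.54, -1.25 and -1.23. Further genes named at 24 over 3 months were Znhit1 (107, 87 and 44 UMIs), Bloc1s2 (89, 69 and 37) and Ccar2 (67, 46 and 33) on the lower side, and the noncoding Epb41l4aos (38, 61 and 76) on the higher side.

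**Figure D4:**
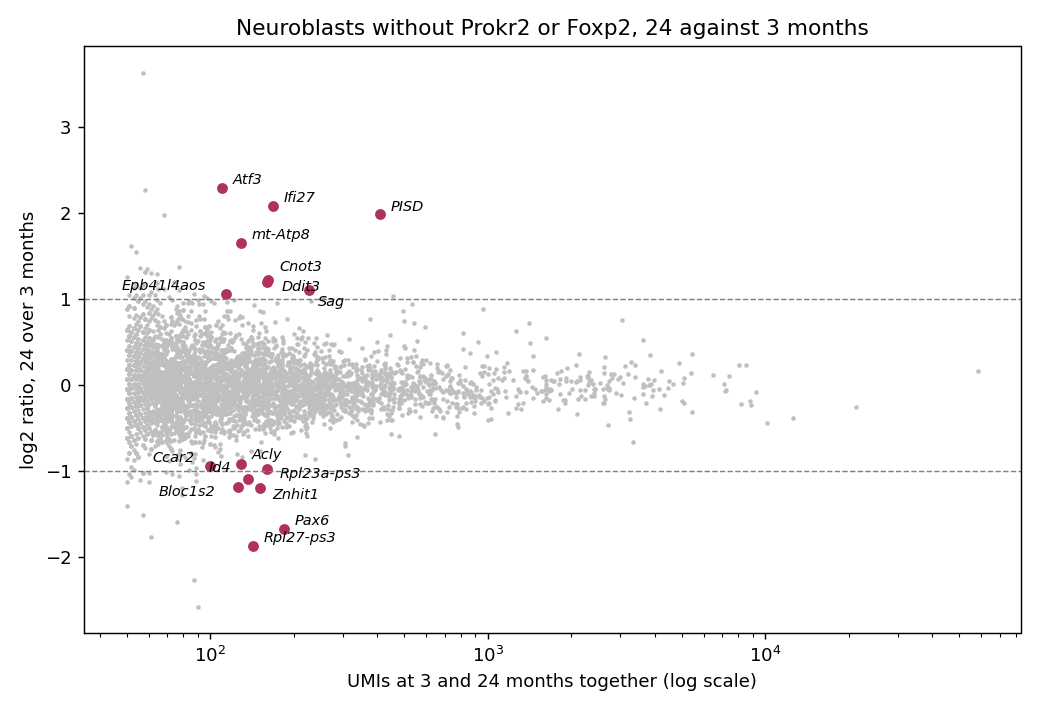
Log2 ratio of the level at 24 over 3 months in the members against the UMIs of both ages together (log scale), with 1 point for each of 4366 genes, the 16 named genes in red and dashed lines at 2-fold. Most points lie within 2-fold, and Atf3, Ifi27 and PISD are the highest of the named genes.

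**Figure D5:**
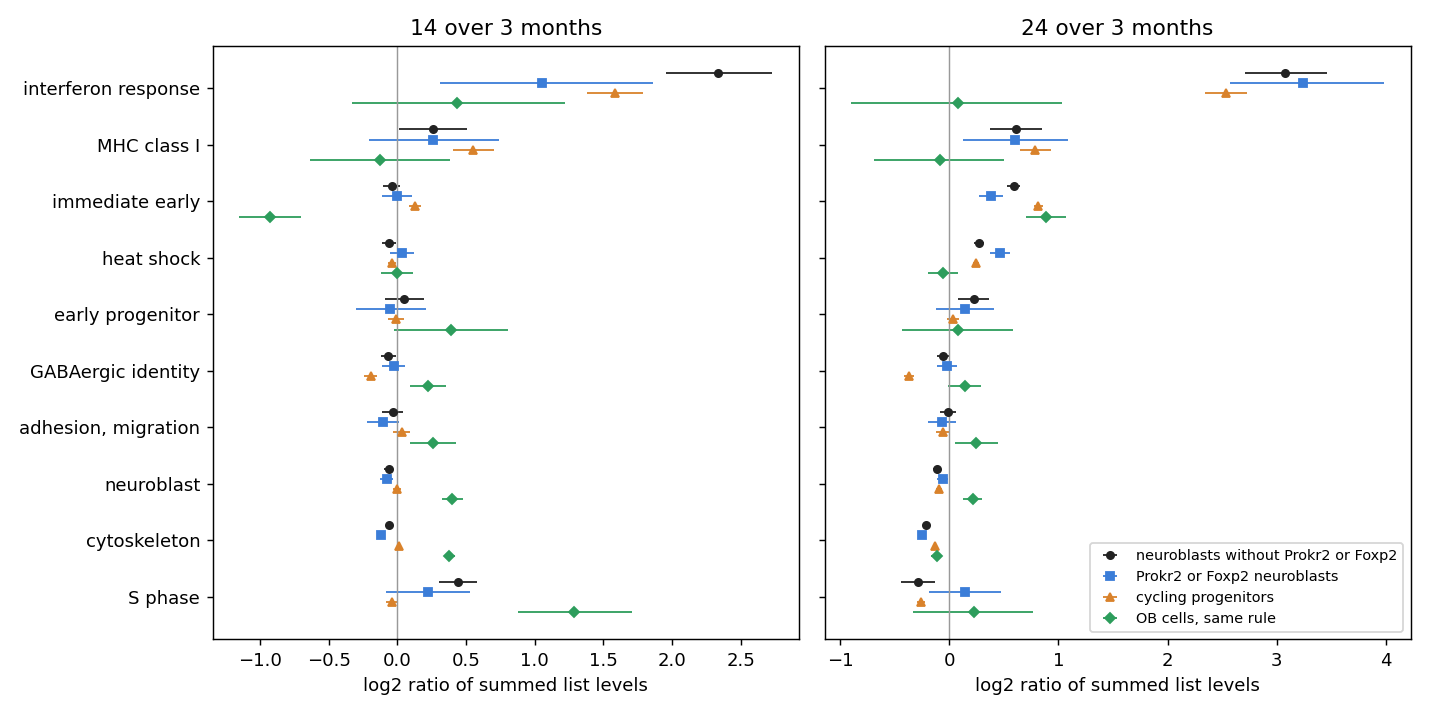
Log2 ratio of the summed level of 10 gene lists at 14 over 3 months (left) and 24 over 3 months (right) in 4 cell classes, with bars for exact 95% intervals that cover counting error only. The interferon list has the highest ratios in the SVZ classes, at 2.33 and 3.08 in the members, while the neuroblast list, here with Dcx, and the GABAergic identity list of the members lie near 0.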

How the data were processed

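The deposited files held raw UMI counts per gene and barcode, made by the authors with Cell Ranger on the mm10 build (the matrix headers name version 3.0.2, per the file headers). There were 9 libraries with 27998 genes. Members were found by the rule on these counts, and UMIs were summed by library and cell class. The rule, its members and the 31 gene lists (397 of 398 genes matched) were chosen with earlier results of these data known.

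Classes were compared over the 3 SVZ libraries, or the 3 SVZ and 3 OB libraries, with edgeR 4.0.16 in R 4.3.3 (filterByExpr, TMM factors, glmQLFit and glmQLFTest, age as a block, Benjamini-Hochberg threshold 0.05). Rule genes were left out of the calls. Ages had 1 library each and were compared by log2 ratios of CPM (pseudocount 0.5, at least 50 UMIs over both sums) with exact conditional binomial intervals, shares with Clopper-Pearson intervals and levels with exact Poisson intervals, all of 95% and for counting error only. Named genes were, in each edgeR comparison, the 10 highest and 10 lowest log2 fold changes past the threshold with a mean of at least 20 CPM and 1 direction in all 3 libraries, at 24 over 3 months the 8 highest and 8 lowest and in the other ratios the 5 highest and 5 lowest with at least 100 UMIs, list members past the threshold, the 3 most abundant genes of each list and St18. For shares, cells were thinned to 1500 UMIs.

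Alternatives were DESeq2 1.42.0, other normalisations and filters, no block, other UMI, mitochondrial and Gad1 limits, the rule applied to thinned cells, each age left out, and a split by Xist and Y-linked UMIs that was added after the data were seen. Doublets were called with Scrublet in scanpy 1.11.5. Sums, ratios and intervals were computed with pandas 2.3.3 and scipy 1.17.1 (Python 3.11.15), and the scripts were tested on simulated data. Gene coordinates are from GENCODE vM21. Some genes named by these rules are not reported here.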

Additional observations from a re-analysis of the deposited data

Results flagged for a closer look

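The ratio of 24 over 3 months of Bloc1s2, a subunit of a lysosome-positioning complex, was -1.20 on the log2 scale in the members and 0.26 (-0.75 to 1.30) in the neuroblasts with Prokr2 or Foxp2, so the 2 values had opposite signs. The ratio of 24 over 14 months of 2810417H13Rik was -2.30 in the members and 0.47 (-1.96 to 2.89) in the cells with Prokr2 or Foxp2. Neither difference was tested, since there was 1 library for each age, and both intervals in the cells with Prokr2 or Foxp2 span 0.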

How the results depend on the processing

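Each age was 1 pooled library, so counting intervals leave out the variation between mice. The share of SVZ barcodes that were members, 15.81%, was 12.99% with at least 3000 UMIs, 9.43% with at least 2 UMIs of Gad1 and 7.564% when cells were thinned to 1500 UMIs first. The 421 genes called against the cells with Prokr2 or Foxp2 were 49 with DESeq2, 92 with no replicate block, 252 with at least 3000 UMIs, 19 with thinned cells, and 208 to 227 with an age left out. The 4742 genes called against cycling cells were 2465 with DESeq2 and 1374 with thinned cells. The 1157 genes called against OB cells were 452 with DESeq2, 165 with thinned cells and 550 to 1110 with an age left out. The 72, 59 and 82 genes at least 2-fold apart (24 over 3, 14 over 3 and 24 over 14 months) were 717, 765 and 794 with a minimum of 10 UMIs and 4, 2 and 5 with a minimum of 200. The interferon log2 ratio of 14 over 3 months, 2.33 in all members, was -0.51 (-1.17 to 0.15) in members with Xist and no Y-linked UMI, a split chosen after the data were seen. At 3 months 2 of the 43 cells of this group had 5 or more of its 43 list UMIs each, the highest 17. The negative sign may rest on these 2 cells. The causes of these shifts were not tested.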
